A study of Homo sapiens with 6 samples.

Results

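The integrated stress response genes described here are 31 genes: the kinases that phosphorylate the translation factor eIF2, the phosphatase subunits that undo this, the transcription factor ATF4 and its targets outside serine synthesis, amino acid transport and tRNA charging. They were listed by gene symbol, with earlier results of these data known, and found among 60609 genes counted by RNA sequencing. The cells were HEK293, a human embryonic kidney line, grown in DMEM with fetal bovine serum. One group of 3 libraries was wild type and the other group of 3 was STAT5B knockout, made with CRISPR/Cas9 and picked as clones with both alleles mutated. The sample names of both groups carry the word Sham, and the growth protocol also calls the knockout clones GS. Neither name is explained, and the genotype is taken as labelled. The labels do not say how many clones the knockout libraries came from, nor whether the 3 libraries of a group were separate cultures, so p-values measure the spread between these libraries only, which may be technical. What a picked clone differs in from its parent line, and what STAT5B loss does, cannot be told apart here.

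In the integrated stress response, kinases that sense unfolded protein, amino acid shortage, double-stranded RNA or mitochondrial and haem stress phosphorylate eIF2 and lower general translation. The ATF4 mRNA is translated better in that state, because a short reading frame that starts ahead of its coding sequence is then bypassed. ATF4 pairs with C/EBP proteins on elements in its target genes, which serve amino acid supply, redox balance, growth control and feedback on eIF2. Total mRNA shows the level of these transcripts, and neither eIF2 phosphorylation nor ATF4 protein was measured.

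Depth ran from 17494958 to 21099813 estimated counts per library. STAT5B itself was at 64.6 to 70.1 CPM (counts per 1000000 on TMM-scaled library sizes) in the wild type and 60.5 to 63.1 CPM in the knockout, and a count over a whole gene does not check a small mutation. Its fall of 0.14 in log2 units (SE 0.047, edgeR adjusted p = 0.0468) just passed the threshold. The call ended in DESeq2 (adjusted p = 0.104) and without each library in turn except wild-type replicate 2 (edgeR adjusted p = 0.061 to 0.16). It also ended in edgeR with no low-count filter (adjusted p = 0.062), effective-length offsets (0.104) or the replicate number as a block (0.0554). The same held in limma on log2(TPM + 1) (adjusted p = 0.0844) and in the test against a 1.2-fold change. Each of 9 HEK293 markers was detected, and NEFM, a neurofilament chain, was at 438 CPM in wild-type and 198 CPM in knockout libraries. The blood markers PTPRC, CD3E and HBG1 were at 0 in each library, and the other 3 of the 6 blood markers stayed at or below 0.672 CPM. Of 6 fibroblast markers COL1A1 ran from 7.09 to 10.04 CPM and the other 5 stayed at or below 1.86 CPM.

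The element known from ATF4 targets is the C/EBP-ATF response element, searched here as TGATGNAA on both strands (TTNCATCA on the other) in the 250 bases before each annotated start. RefSeq promoter windows on GRCh38.p14 were matched for 27 of the 31 genes, with 1 to 5 starts each. At least 1 window held the element in 8 of the 27 (29.6%), against 3.89% of 27305 genes in the whole table and 2.29% of 11266 tested genes. Per window the share was 17% of 47, against 3.14% of 35116 and 1.65% of 16501. The list was drawn up to hold targets of ATF4, so a higher share is not a result about the groups compared here. The holders were ASNS, BCAT1, CEBPG, CHAC1, FGF21, GOT1, JDP2 and PPP1R15B. A match is a description and not a shown binding site. The 6 holders with the largest change between the groups are printed below on the strand of the gene, with the element in capitals and the bases around it in lower case.
CHAC1, chr15:40953251-40953280, plus strand: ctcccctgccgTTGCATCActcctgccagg
ASNS, chr7:97872458-97872487, minus strand: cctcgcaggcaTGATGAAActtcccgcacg
CEBPG, chr19:33374060-33374089, plus strand: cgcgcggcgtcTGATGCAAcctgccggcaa
JDP2, chr14:75427995-75428021, plus strand: atagccggggcTGATGCAAcccgtccc
PPP1R15B, chr1:204412026-204412055, minus strand: cccgccccggcTGATGCAAcctcacgctgc
GOT1, chr10:99430804-99430833, minus strand: aattgcattggTTGCATCAttctcggcagc

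The element starts 209 bases before the annotated start in CHAC1, 68 in ASNS, 42 in CEBPG, 16 in JDP2, 227 in PPP1R15B and 198 in GOT1. In these 6 stretches the ASNS element is the only one with A at the free position of the motif, and the other 5 share the same 8 letters on one strand or the other. Holders of the element differed in their calls: ASNS, CEBPG and PPP1R15B rose, while CHAC1, JDP2, GOT1 and BCAT1 did not pass the test and FGF21 was too low to test.

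Of the 31 genes, 28 had enough counts to be tested, each with at least 32 counts in every library, so none passed through 1 group alone. In these bulk samples more RNA per cell and more cells that express a gene cannot be told apart. In the knockout 14 of them rose and 2 fell at an edgeR adjusted p under 0.05, where 12.1% of 15958 tested genes rose and 11.4% fell. The median log2 fold change of the 28 was 0.22, against 0.0063 over all tested genes. All 3 knockout libraries lay above all 3 wild-type libraries for 14 of the 28 and below them for 3, against 19.9% and 18.7% of all tested genes. The changes were small: the median size of the 16 changes was 1.28-fold, against 1.19-fold over all changed genes, 2 of the 16 passed 1.5-fold and none passed 2-fold. Counts of members called depended on the scale: with offsets for effective length 9 rose and 1 fell, and in limma on log2(TPM + 1) ATF4, TSC22D3 and SESN2 rose and ATF5 fell. On that scale 30.1% of the calls over all genes were rises, against 51.4% in the edgeR test.

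**Figure D1:**
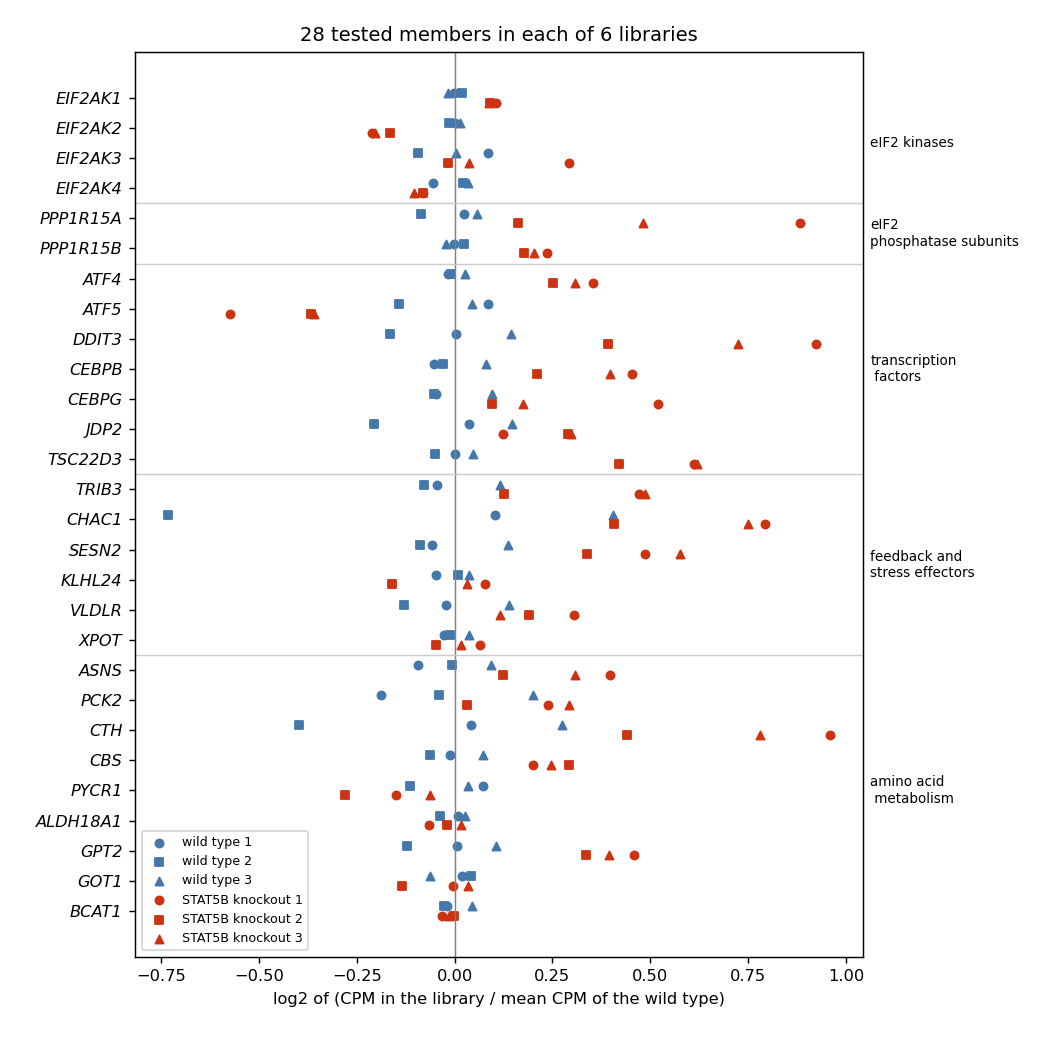
Level of each of the 28 tested genes in each of the 6 libraries, as log2 of its CPM over the mean of the wild type, with roles at the right. For 14 genes every knockout point lies to the right of every wild-type point, and for EIF2AK2, EIF2AK4 and ATF5 every knockout point lies to the left.

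Compared per length, ATF4 was by far the most abundant of these mRNAs. TPM (transcripts per 1000000, which allows comparison between genes) of ATF4 was 739 ± 13.2 in the wild type and 859 ± 42.3 in the knockout (SD, n = 3). TSC22D3, CBS, ASNS and EIF2AK1 followed with 183, 189, 168 and 157 TPM in the wild type, and TSC22D3 and CBS did not differ beyond their wild-type spreads (SD 5.93 and 6.04 TPM). The CBS level leaves out reads assigned to a near-identical copy, described with CBS among the enzymes, so its place in this order depends on how those reads were divided. Several regulators were much lower: DDIT3 had 10.98 ± 1.19 TPM, CHAC1 3.63 ± 1.35 TPM and VLDLR 3.00 ± 0.36 TPM in the wild type. The secreted factors and the stress protein NUPR1 were close to undetected.

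**Figure D2:**
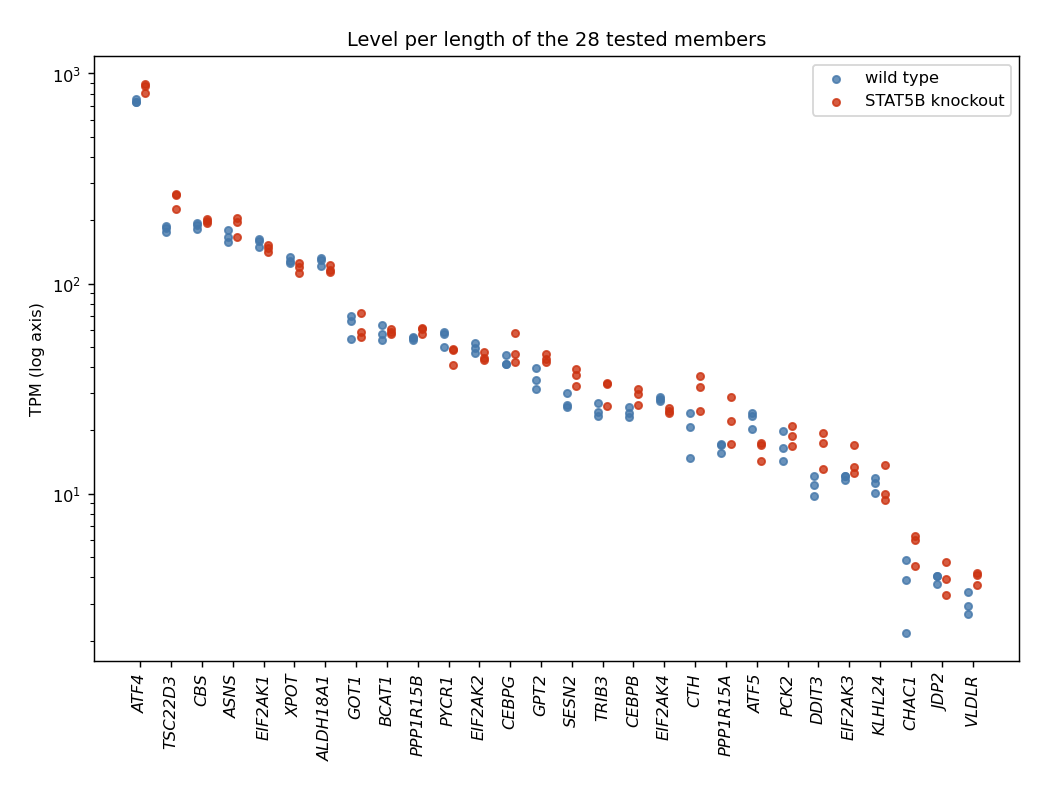
TPM of the 28 tested genes on a log axis, ordered by mean level, with 1 point per library. ATF4 stands at the top with a wild-type mean of 739 TPM, and VLDLR, JDP2 and CHAC1 lie at the bottom with wild-type means of 3.00 to 3.95 TPM.

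Among the eIF2 kinases there was no common direction. EIF2AK2, the kinase PKR that senses double-stranded RNA (chromosome 2, 37099210 to 37157065, hg38), measured 175, 173 and 177 CPM across wild-type libraries against 151, 156 and 152 CPM across knockout libraries. The groups did not overlap, and EIF2AK2 fell by 0.19 in log2 units (SE 0.032, edgeR adjusted p = 6.54e-04). EIF2AK1, the haem-regulated kinase HRI, measured 257, 261 and 254 CPM across wild-type libraries against 277, 274 and 273 CPM across knockout libraries. Its rise of 0.094 in log2 units (SE 0.030, edgeR adjusted p = 0.0346) was the smallest of any member called, and its 50 nearest tested genes had a median of 0.060. EIF2AK4, the kinase GCN2 that senses uncharged tRNA, measured 80.4 ± 2.66 CPM across wild-type libraries against 75.6 ± 0.69 CPM across knockout libraries, without overlap but short of the threshold (log2 fold change −0.089, edgeR adjusted p = 0.138). EIF2AK3, the endoplasmic reticulum kinase PERK, had overlapping groups of 27.6 to 31.2 and 29.1 to 36.1 CPM (edgeR adjusted p = 0.368), and leaving out knockout replicate 1 took its log2 fold change from 0.11 to 0.0087. The EIF2AK1 call ended without each of 5 of the 6 libraries in turn (adjusted p = 0.0671 to 0.119, all but knockout replicate 3), and its value turned negative under effective-length offsets (−0.034) and in limma on log2(TPM + 1) (−0.10). The EIF2AK2 call ended in these same settings (adjusted p = 0.421 and 0.181). AIMP2 and GPATCH11, on the other strand, overlap EIF2AK1 and EIF2AK2. Their counts over the whole gene were 27.6% and 30.1% of those of EIF2AK1 and EIF2AK2, and counts within the shared stretches were not measured.

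Both regulatory subunits of the eIF2 phosphatase rose, in neighbourhoods that differed. PPP1R15A, the stress-induced subunit GADD34, measured 21.2, 19.6 and 21.7 CPM across wild-type libraries against 38.3, 23.3 and 29.03 CPM across knockout libraries. Its groups did not overlap, the knockout libraries were widely spread, and the log2 fold change was 0.53 (SE 0.13, edgeR adjusted p = 0.0105). The median of its 50 nearest tested genes was −0.019. PPP1R15B, the constitutive subunit CReP, measured 166, 169 and 164 CPM across wild-type libraries against 196, 188 and 191 CPM across knockout libraries, a log2 fold change of 0.20 (SE 0.032, edgeR adjusted p = 4.50e-04). It lies on chromosome 1 (204403387 to 204411791, hg38), whose tested genes had a median of 0.15, and its 50 nearest had a median of 0.19. Without knockout replicate 1 the PPP1R15A value was 0.32 (adjusted p = 0.0420). The PPP1R15A call ended without wild-type replicate 2 (adjusted p = 0.0524) and under effective-length offsets (0.0697), and PPP1R15B was at 0.11 on log2(TPM + 1) (adjusted p = 0.170).

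The transcription factors of the response rose in 5 of 7 tested cases, and ATF5 fell, where 12.1% of all tested genes rose and 11.4% fell. ATF4 (chromosome 22, 39519695 to 39522685, hg38) measured 579, 583 and 597 CPM across wild-type libraries against 749, 698 and 726 CPM across knockout libraries. Its groups were far apart relative to their spread, with a log2 fold change of 0.31 (SE 0.034, edgeR adjusted p = 3.15e-05), and its 50 nearest tested genes had a median of 0.0070. The estimated counts of ATF4 were not whole, as happens where reads are divided between loci. DDIT3, the factor CHOP of prolonged stress, measured 5.13, 4.56 and 5.66 CPM across wild-type libraries against 9.71, 6.72 and 8.46 CPM across knockout libraries. This low-level transcript rose by 0.69 in log2 units (SE 0.15, edgeR adjusted p = 0.0046). MARS1 and MBD6, on the other strand, overlap DDIT3, with means of 4857 and 777 counts over the whole gene against 125 for DDIT3. No source used here says whether counting used strand, so their reads and those of DDIT3 in the shared stretches cannot be told apart. MARS1 itself rose by 0.13 and MBD6 fell by 0.38 on the log2 scale.

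The C/EBP partners rose less evenly. CEBPB, a C/EBP factor that dimerises with ATF4, measured 16.8, 17.1 and 18.5 CPM across wild-type libraries against 23.9, 20.2 and 23.0 CPM across knockout libraries, a log2 fold change of 0.35 (SE 0.081, edgeR adjusted p = 0.0059). CEBPG, another dimer partner of ATF4, measured 87.9, 87.5 and 97.1 CPM across wild-type libraries against 130, 97.0 and 102 CPM across knockout libraries, so the groups touched and the value rested largely on knockout replicate 1. Its log2 fold change was 0.27 (SE 0.084, edgeR adjusted p = 0.0316). Without knockout replicate 1 it was 0.13 (adjusted p = 0.115), and the call also ended without wild-type replicate 1 or 2 (0.110 and 0.119), in DESeq2 (0.188) and under effective-length offsets (0.147). The CEBPB call ended under those offsets too (adjusted p = 0.0599).

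ATF5, an ATF4 relative that eIF2 phosphorylation also favours in translation, went the other way. It measured 25.1, 21.4 and 24.4 CPM across wild-type libraries against 15.8, 18.3 and 18.4 CPM across knockout libraries, and fell by 0.43 in log2 units (SE 0.084, edgeR adjusted p = 0.0021). This was the largest fall among the 28 tested genes, and its 50 nearest tested genes had a median of 0.0037. NUP62, which overlaps ATF5 on the other strand and had 2201 counts over the whole gene against 388 for ATF5, had a log2 fold change of 0.022 (edgeR adjusted p = 0.744). As with DDIT3, reads of ATF5 and NUP62 in the shared stretches cannot be told apart. TSC22D3, the glucocorticoid-induced leucine zipper protein GILZ, measured 203, 196 and 210 CPM across wild-type libraries against 310, 272 and 312 CPM across knockout libraries. It rose by 0.55 in log2 units (SE 0.048, edgeR adjusted p = 4.61e-06) and was the one member whose call held in each of the 15 alternative settings. JDP2, a repressor of the AP-1 family, did not pass (3.02 ± 0.37 and 3.57 ± 0.24 CPM, edgeR adjusted p = 0.387), and NUPR1 measured 3, 12 and 8 counts across wild-type libraries against 6, 5 and 5 counts across knockout libraries, too few to test.

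Feedback and stress effectors of ATF4 were split between 2 that rose and 4 that did not pass, where 12.1% of all tested genes rose. SESN2, a sestrin that restrains mTORC1, measured 50.8, 49.7 and 58.1 CPM across wild-type libraries against 74.1, 66.8 and 78.9 CPM across knockout libraries. It rose by 0.47 in log2 units (SE 0.068, edgeR adjusted p = 2.39e-04), and although it lies on chromosome 1 its 50 nearest tested genes had a median of −0.087. TRIB3, a pseudokinase that dampens ATF4 and CHOP, measured 26.5, 26.0 and 29.7 CPM across wild-type libraries against 37.9, 29.9 and 38.3 CPM across knockout libraries. Knockout replicate 2 was barely above wild-type replicate 3, and the log2 fold change was 0.36 (SE 0.090, edgeR adjusted p = 0.0093). The TRIB3 call ended without wild-type replicate 2 (adjusted p = 0.0502) and without knockout replicate 1 (0.0588).

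CHAC1, which degrades glutathione and is among the more inducible ATF4-CHOP targets, was low and variable. It measured 2.99, 1.68 and 3.69 CPM across wild-type libraries against 4.83, 3.70 and 4.69 CPM across knockout libraries, so the groups were separated by the gap between 3.691 CPM in wild-type replicate 3 and 3.696 CPM in knockout replicate 2. The log2 fold change of 0.65 (SE 0.24) missed the threshold in edgeR (adjusted p = 0.0692), and it ran from 0.39 without wild-type replicate 2 (adjusted p = 0.237) to 0.92 without wild-type replicate 3 (0.0271). VLDLR, a lipoprotein receptor, had 7.91 ± 0.75 and 9.12 ± 0.61 CPM (edgeR adjusted p = 0.214), and passed under effective-length offsets (log2 fold change 0.48, adjusted p = 0.0491). XPOT, the exporter of tRNA from the nucleus, and KLHL24, a ubiquitin ligase adaptor, had log2 fold changes of 0.011 (SE 0.035) and −0.017 (SE 0.067), with overlapping groups.

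FGF21 and GDF15, the hormones by which stressed tissues signal at a distance, were at the limit of detection. FGF21 was at 0 counts throughout the wild type, with 2, 2 and 0 in the knockout, and GDF15 measured 0, 2 and 2 counts across wild-type libraries against 0, 2 and 0 counts across knockout libraries. Neither was tested, and at this depth no difference was detectable.

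Of 9 enzymes of amino acid metabolism 4 rose and 5 did not pass, where 12.1% of all tested genes rose. CTH, the cystathionine gamma-lyase that makes cysteine, measured 22.1, 16.3 and 26.0 CPM across wild-type libraries against 41.8, 29.1 and 36.9 CPM across knockout libraries. Its log2 fold change of 0.73 (SE 0.14, edgeR adjusted p = 0.0020) was the largest of the 28, with wild-type replicate 2 and knockout replicate 2 the lowest of their groups. CTH lies on chromosome 1, where its 50 nearest tested genes had a median of 0.17. CBS, which makes the cystathionine that CTH cleaves, measured 182, 176 and 193 CPM across wild-type libraries against 211, 225 and 218 CPM across knockout libraries (log2 fold change 0.25, SE 0.039, edgeR adjusted p = 4.71e-04). Reads were divided between CBS and a near-identical copy (ENSG00000274276.4) on chromosome 21, which did not pass the test (log2 fold change 0.054, edgeR adjusted p = 0.492). With the pair summed, a step chosen after seeing the data, the level was 293 to 297 CPM in wild-type and 329 to 335 CPM in knockout libraries, a log2 fold change of 0.18 (SE 0.029, edgeR adjusted p = 6.79e-04).

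ASNS, the asparagine synthetase whose promoter element is printed above, measured 168, 179 and 192 CPM across wild-type libraries against 236, 196 and 222 CPM across knockout libraries. The groups were separated by a narrow gap between wild-type replicate 3 and knockout replicate 2, and ASNS rose by 0.28 in log2 units (SE 0.060, edgeR adjusted p = 0.0041). GPT2, the mitochondrial alanine transaminase, measured 74.8, 68.4 and 80.1 CPM across wild-type libraries against 102, 93.8 and 97.8 CPM across knockout libraries, a rise of 0.39 in log2 units (SE 0.054, edgeR adjusted p = 1.52e-04). Under effective-length offsets the calls of ASNS and CBS ended (adjusted p = 0.0703 and 0.0774).

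The other 5 enzymes did not pass the test. PCK2, the mitochondrial enzyme that makes phosphoenolpyruvate, measured 19.4 ± 2.67 CPM across wild-type libraries against 22.1 ± 2.07 CPM across knockout libraries (SD, n = 3 each, edgeR adjusted p = 0.205). PYCR1, the last enzyme of proline synthesis, had a log2 fold change of −0.16 (SE 0.065, edgeR adjusted p = 0.0836), beside a median of its 50 nearest tested genes on chromosome 17 (−0.16). Without knockout replicate 2 PYCR1 was at −0.11 (adjusted p = 0.310), and it passed as lower without wild-type replicate 2 (−0.22, 0.0433) or knockout replicate 3 (−0.22, 0.0293). PCK2 ran from 0.098 without wild-type replicate 1 (adjusted p = 0.563) to 0.30 without wild-type replicate 3 (0.0467). ALDH18A1, which starts proline synthesis from glutamate, had a value of −0.023 (SE 0.033). GOT1, the cytosolic aspartate transaminase, and BCAT1, the cytosolic transaminase of branched-chain amino acids, had values of −0.035 (SE 0.052) and −0.017 (SE 0.032). The signs of GOT1 and BCAT1, like those of XPOT and KLHL24, turned under some settings, so no direction is given for them.

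**Figure D3:**
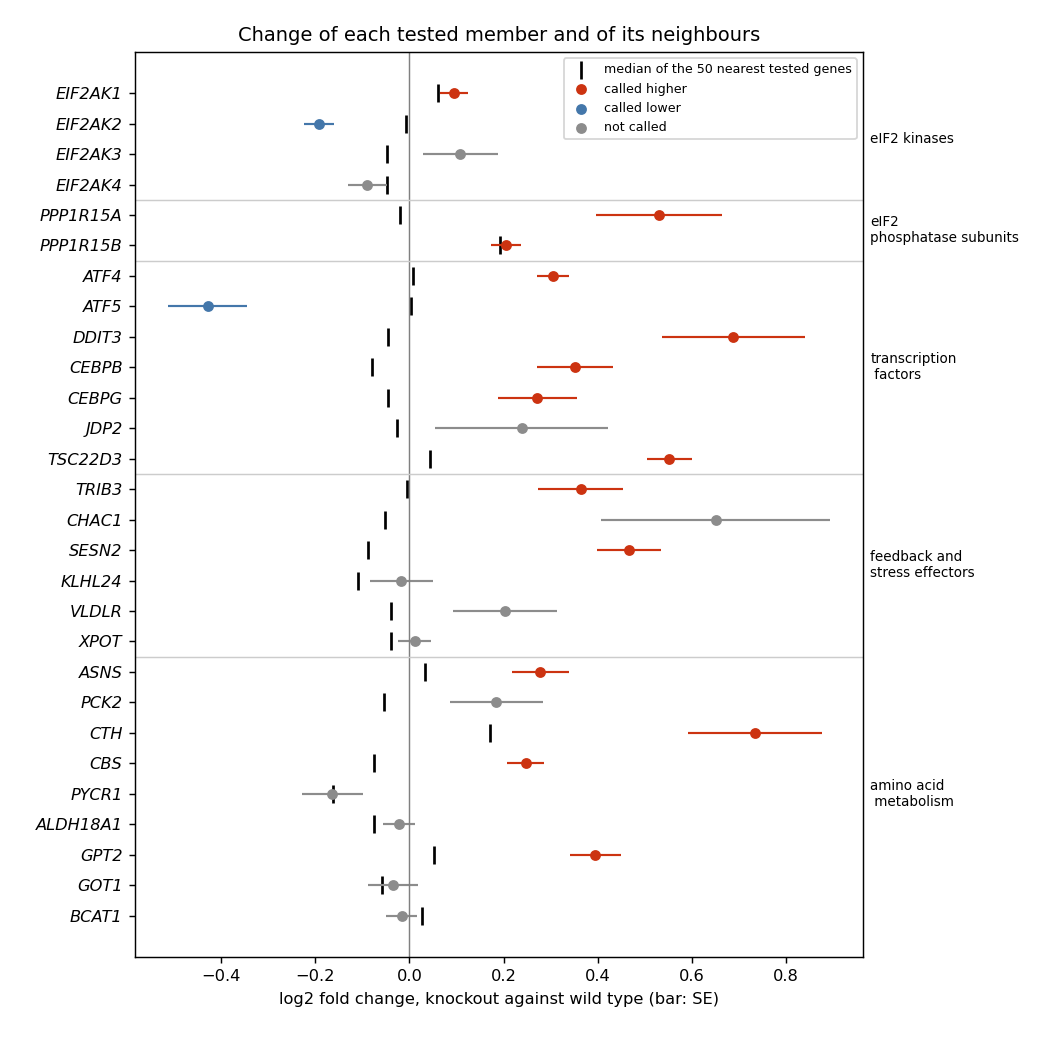
Log2 fold change of each tested gene with its SE, and a black tick at the median of its 50 nearest tested genes on the chromosome. The ticks of PPP1R15B (0.19) and PYCR1 (−0.16) lie at the gene's own value, while those of ATF4, ATF5, DDIT3 and TSC22D3 lie close to 0.

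Neighbourhoods of the members were mostly flat. The medians of the 50 nearest tested genes ran from −0.16 at PYCR1 to 0.19 at PPP1R15B, and only PPP1R15B and CTH had one above 0.1. Outside chromosome 1, 11 of 25 tested members rose and 2 fell. The 12.1% and 11.4% of all tested genes that rose and fell include chromosome 1, and the shares outside it were not taken. Whether gene dosage differed between the groups was not tested.

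Libraries differed within the groups in the same sense across many of these genes. The median deviation of the 28 genes from their own means was −0.13, −0.15 and −0.044 on the log2 scale in the wild-type libraries and 0.18, −0.00018 and 0.11 in the knockout libraries, while the median over all tested genes lay between −0.0012 and 0.0073. Wild-type replicate 3 was the highest of its group for 22 of the 28 genes, and wild-type replicate 2 the lowest for 18. Knockout replicate 1 was the highest of its group for 16, and knockout replicate 2 the lowest for 19. Replicate 2 was thus most often the lowest in both groups. The matching counts over all tested genes were not taken. Wild-type replicate 3 and knockout replicate 2 were the deepest libraries of their groups, at 20279181 and 21099813 counts. The part of depth in this was not tested. Leaving out 1 library at a time gave 10 to 15 members that rose and 2 or 3 that fell. In the same fits 1339 to 1789 of all genes rose and 1279 to 1786 fell, of 16232 to 16343 tested.

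Genes that feed or follow the same pathway but are not among the 31 are given by list, and the counts stand beside the 12.1% of all tested genes that rose and the 11.4% that fell. All 6 serine and one-carbon targets of ATF4 rose (median log2 fold change 0.27), and those with the smallest p were PHGDH, the first enzyme of serine synthesis (0.37), ALDH1L2, a mitochondrial folate enzyme (0.34), and PSAT1, the next serine enzyme (0.25), with a highest edgeR adjusted p of 8.56e-04. PHGDH lies on chromosome 1, and its 50 nearest tested genes had a median of 0.11. Of 12 tRNA synthetases 7 rose (median 0.13), led by SARS1, EPRS1 and GARS1 for serine, glutamate with proline, and glycine (0.29, 0.23 and 0.19, highest edgeR adjusted p of 0.0013). SARS1 and EPRS1 lie on chromosome 1, where their 50 nearest tested genes had medians of 0.16 and 0.23. Of 8 transporters 3 rose and 1 fell: SLC6A9, a glycine carrier (0.53), SLC1A4 and SLC38A2, carriers of neutral amino acids (0.33 and 0.11), rose, and the glutamine carrier SLC1A5 fell by 0.14. SLC6A9 lies on chromosome 1, and its 50 nearest tested genes had a median of 0.20. Of 12 further ATF4 targets 6 rose (median 0.31), among them the stress factor ATF3 by 1.39, the endoplasmic reticulum protein HERPUD1 by 0.63 and the secreted glycoprotein STC2 by 0.46. ATF3 measured 17.6, 14.6 and 30.02 CPM across wild-type libraries against 76.2, 36.0 and 53.4 CPM across knockout libraries. Replicate 2 was the lowest of its group in both, and wild-type replicate 3 and knockout replicate 1 were the highest. ATF3 too lies on chromosome 1, with a neighbour median of 0.15. The sign of STC2 turned under effective-length offsets (−0.046) and in limma on log2(TPM + 1) (−0.098), and the ALDH1L2 call ended with those offsets (adjusted p = 0.270).

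**Figure D4:**
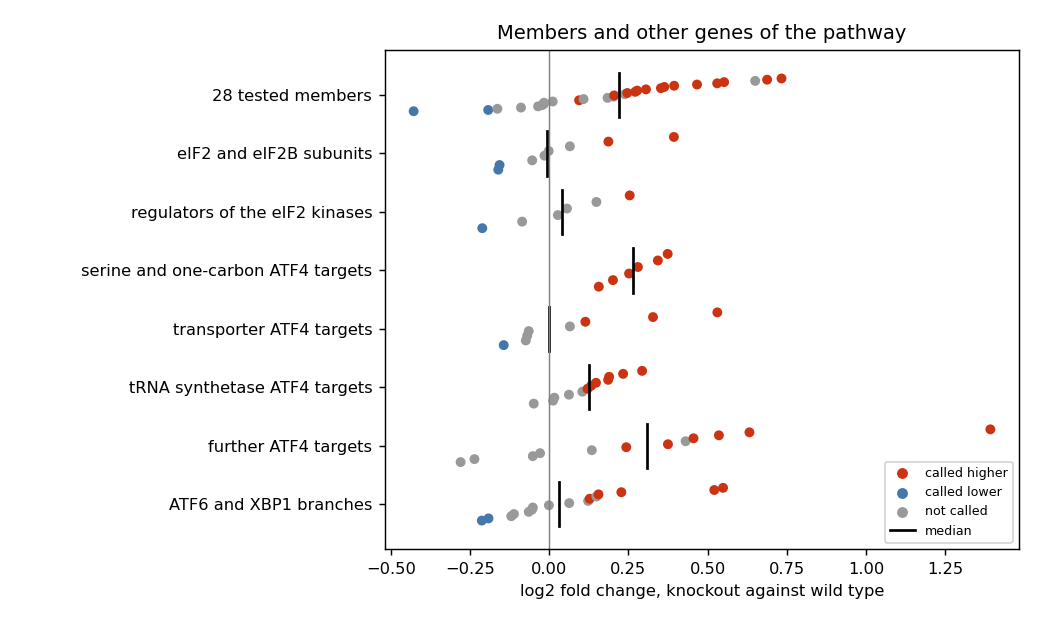
Log2 fold change of the 28 tested members and of 7 other lists of pathway genes, 1 point per gene and a black line at the median. The serine and one-carbon points all lie above 0, whereas the other 6 lists and the members have points on both sides of 0.

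Parts of the pathway upstream of ATF4 and the parallel branches of the unfolded protein response did not move one way. Of 8 subunits of eIF2 and of its exchange factor eIF2B, 2 rose (EIF2B3 by 0.39 and EIF2S2 by 0.19) and 2 fell (EIF2B1 and EIF2B5, both by 0.16), and EIF2B3 lies on chromosome 1 with a neighbour median of 0.16. Of 6 regulators of the kinases, the adaptor NCK1 rose by 0.25 and GCN1, the co-activator of GCN2 at ribosomes, fell by 0.21. Of 16 genes of the ATF6 and XBP1 branches 5 rose and 2 fell, with a median of 0.031, where 12.1% of all tested genes rose and 11.4% fell. XBP1, the factor that IRE1 splices, rose by 0.52 and its chaperone target DNAJB9 by 0.55, while the chaperone CALR fell by 0.21 (edgeR adjusted p = 1.67e-04, 0.0016 and 2.31e-04). Leaving out single libraries ended the edgeR calls of EIF2B5 (adjusted p = 0.0702 to 0.156, all libraries but knockout replicate 3), EIF2B1 (0.0585 to 0.120, wild-type replicate 2 and knockout replicates 1 and 3), EIF2S2 (0.0541 and 0.0574, wild-type and knockout replicate 1) and NCK1 (0.0691 and 0.0646, wild-type replicate 3 and knockout replicate 1). Among the transporters it ended those of SLC38A2 (0.0551 to 0.117, all but knockout replicate 2), SLC1A5 (0.0579 and 0.0555, wild-type replicate 1 and knockout replicate 2) and SLC1A4 (0.0544, knockout replicate 1). The difference between the 28 members and these lists was not tested.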

How the data were processed

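The labels name a Qiagen RNA isolation kit and a KAPA mRNA library kit. Per the submitters' processing notes the tools were FastQC, fastp, DRAGEN and Picard and the build was hg38, and no source used here says how reads were assigned to genes. Per the file headers each deposited table holds 1 row per gene with length, effective length, TPM and estimated count. The deposited estimated counts were not whole for 7.12% to 7.64% of genes and were rounded. The TPM deposited by the authors served for levels between genes and 1 alternative.

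Symbols were found for 42005 of 60609 identifiers, and hg38 positions came from GENCODE release 29. Counts were tested with edgeR 4.0.16 in R 4.3.3 (filterByExpr with minimum count 10 and total 15, TMM scaling, quasi-likelihood F test of knockout against wild type, Benjamini-Hochberg adjustment over all 15958 genes, threshold 0.05). Another 44651 genes were too low to test. SE is the log2 fold change over the root of F. The fit was run on simulated counts with the same dispersion for all genes and with changes larger than most of those described here. It therefore does not show how reliably changes of the size of the members are called. Replicates differed by more than sampling noise (chi-square per degree of freedom 2.45 to 7.50). Over all tested genes, deviations from the group mean correlated weakly between same-numbered libraries (0.017, 0.11 and 0.044). The highest was 0.11, for replicate 2. Between differently numbered libraries the correlations ran from −0.11 to 0.058. Numbers were not treated as pairs in the main test, and a replicate block is among the alternatives. For position, the median of the 50 nearest tested genes on the same chromosome was taken.

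All 31 members are reported. From each other list the up to 3 genes with the smallest p are named, or every changed gene where at most 5 changed. Members, lists and rules were chosen with earlier results of these data known. The alternatives tried were DESeq2 1.42.0, RLE scaling, limma-voom (limma 3.58.1), no low-count filter, 1 CPM in 3 libraries, effective-length offsets, limma on log2(TPM + 1), a replicate block, a test against a 1.2-fold change, and leaving out each library.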

Additional observations from a re-analysis of the deposited data

How the results depend on the processing

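With effective-length offsets 9 members rose and 1 fell, and over all genes 891 rose and 843 fell. On log2(TPM + 1) these numbers were 3, 1, 488 and 1135. Against a 1.2-fold change they were 2 (TSC22D3 and CTH), 0 (against 2 in the edgeR test without that margin), 155 and 140, a stricter question by construction. The cause of the first pair of shifts was not tested. In RLE scaling, DESeq2, limma-voom and both other filters 13 or 14 members rose and 2 or 3 fell. With the replicate number as a block 14 rose and 3 fell, with CHAC1 (adjusted p = 0.0259) and PYCR1 (0.0396) gained and EIF2AK1 (0.0582) lost. Members outside chromosome 1 gave 11 rises and 2 falls, and no share of all genes outside it was taken for comparison.

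Of 420 results of single members under alternatives, 351 kept their direction and side of the threshold, 45 lost a call, 9 gained one and 15 changed sign. With effective-length offsets the signs of EIF2AK1 (−0.034), KLHL24 (0.049), XPOT (−0.052), GOT1 (0.035) and BCAT1 (0.082) turned, and on log2(TPM + 1) those of EIF2AK1 (−0.10), JDP2 (−0.0025), XPOT (−0.12) and BCAT1 (0.017). On the log2(TPM + 1) scale the median log2 fold change over all tested genes was −0.059, against 0.0063 in the main edgeR test. JDP2 and BCAT1 lay above that lower median, and EIF2AK1 and XPOT lay below it. Leaving out 1 library at a time, KLHL24 ran from −0.065 to 0.055, XPOT from −0.017 to 0.040, GOT1 from −0.072 to 0.015 and BCAT1 from −0.030 to 0.0059. Of the 23 genes outside the 31 that were refitted (STAT5B and those named from the 7 other pathway lists), only STC2 changed sign (−0.046 under those offsets and −0.098 on the TPM scale), and 70 of their 345 results lost a call. Depth limits FGF21, GDF15 and NUPR1, and low counts limit CHAC1, JDP2 and DDIT3.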

Other observations

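The palindrome TTCNNNGAA, the core that STAT factors bind, was searched in the same promoter windows after the values were known. It was found in 0 of the 27 integrated stress response genes with a window, in 8.09% of 27305 genes in the table and in 7.25% of 11266 tested genes. This says only that these letters are not in the 250 bases before the annotated starts. The 27 genes are few for shares of this size, and the difference from those shares was not tested.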
